A study of Oryza sativa Japonica Group with 6 samples.

Results

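Transcript levels of 8 Aux/IAA genes, IAA2, IAA16, IAA17, IAA19, IAA21, IAA24, IAA30 and IAA31, were measured in mature anthers of wild-type rice and of the mutant dao. The genes were found by name in the gene table of the array, as symbol or synonym without the leading Os, and each name led to 1 gene. They carry 9 of the 57381 probe sets and are 8 of the 26 Aux/IAA genes that had a probe set. They were chosen by name with their fitted difference between dao and wild type known, none of them having passed the threshold, so their difference between the groups is described and not tested. The list is not complete in this respect, since 8 other Aux/IAA genes that were tested did not pass either.

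Aux/IAA proteins are short-lived nuclear repressors of auxin-responsive transcription. They bind auxin response factors (ARFs) at the promoters of auxin-responsive genes and hold them inactive with co-repressors of the TOPLESS family. Auxin joins an Aux/IAA protein to a receptor of the TIR1/AFB family, which marks the repressor for degradation, and many Aux/IAA genes are themselves switched on by auxin, which closes a feedback loop. DAO, the dioxygenase for auxin oxidation, converts the auxin indole-3-acetic acid to an inactive oxidised form, and rice dao plants are known for anthers that do not open.

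The wild-type group and the dao group had 3 arrays each, and all plants were of a japonica variety, flowered in the field and were sampled at anthesis. The labels name the genotype as wild type or dao mutant and give neither the lesion nor a more exact variety. One description line of the labels speaks of seedlings, against the mature anthers of the titles, source names and tissue fields. The 1-colour Affymetrix rice genome array gives 1 deposited intensity per probe set on a linear scale. Precision is limited by having 3 arrays a group. A whole anther holds several tissues, so fewer cells of a type and less RNA per cell cannot be told apart.

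Before the members, some facts of the arrays bear on them. DAO itself read 480, 883 and 686 in wild-type arrays 1 to 3, and 1551, 1168 and 1391 in those labelled dao (log2 difference 1.04, SE 0.22, n = 3 each, limma adjusted p = 0.0251). The signal was thus higher on the arrays labelled dao, and this neither checks the labels nor measures loss of the enzyme. That call was lost without wild-type array 1 (0.81) or 3 (1.06), and without dao array 1 (0.94) or 3 (1.02). The 4 pollen markers found by name, ADF9, CIN3, EXPB9 and EXPB10, had a summed intensity of 22830 to 24883 in wild type and 19649 to 21492 in dao. The sum of 4 carpel and ovule markers was 515 to 766 in wild type and 761 to 787 in dao. Most of it was MADS58, at 490, 744 and 631 in wild type and 739, 743 and 717 in dao, with overlapping groups. The carpel identity gene DL also overlapped (11.7 to 16.7 over all 6 arrays), while the ovule identity gene MADS13 did not. Array 3 of each group lay between the other 2 in 98.6% (wild type) and 98.9% (dao) of the probe sets in which those differed at least 2-fold. Choosing such probe sets by itself makes a value between the others likelier. The same share was 3.07% and 15.5% for wild-type arrays 1 and 2, and 9.5% and 31.9% for dao arrays 1 and 2. Over all 34355 probe sets tested array 3 lay between the others in 52.5% (wild type) and 55.2% (dao). For arrays 1 and 2 that was 17.9% to 28.7%. The independence of array 3 is thus in doubt. In the 9 member probe sets array 3 lay between the others in 6 in wild type and in 4 in dao. Without both arrays numbered 3, limma called 0 probe sets, with 3481 at an unadjusted p under 0.05, against 1157 (3.37% of those tested) with all arrays.

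The mean signal was higher on the dao arrays in 7 of the 9 member probe sets, and by less than 2-fold in each. IAA31, IAA17, IAA24 and IAA30 were 1.52 to 1.92 times as bright in the dao group as in wild type, with every dao array above every wild-type array. IAA21, IAA19 and IAA2 had ratios of 1.41, 1.17 and 1.14 with overlapping groups, and IAA16 was too dim to be tested. The median difference over the 7 member genes that passed the filter on dim probe sets (a mean intensity of at least 6.33) was 0.61 on the log2 scale, against 0.11 over all 15612 genes tested. Of these 7 genes 0 passed an adjusted p of 0.05 with a 2-fold difference, where 3.83% of all genes tested did. In 4 of the 7 every dao array was above every wild-type array, which was so in 27.1% of all genes tested. Nothing is read from either count, because the members were chosen with this comparison known. A gene with several probe sets is counted here by its brightest one.

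**Figure D1:**
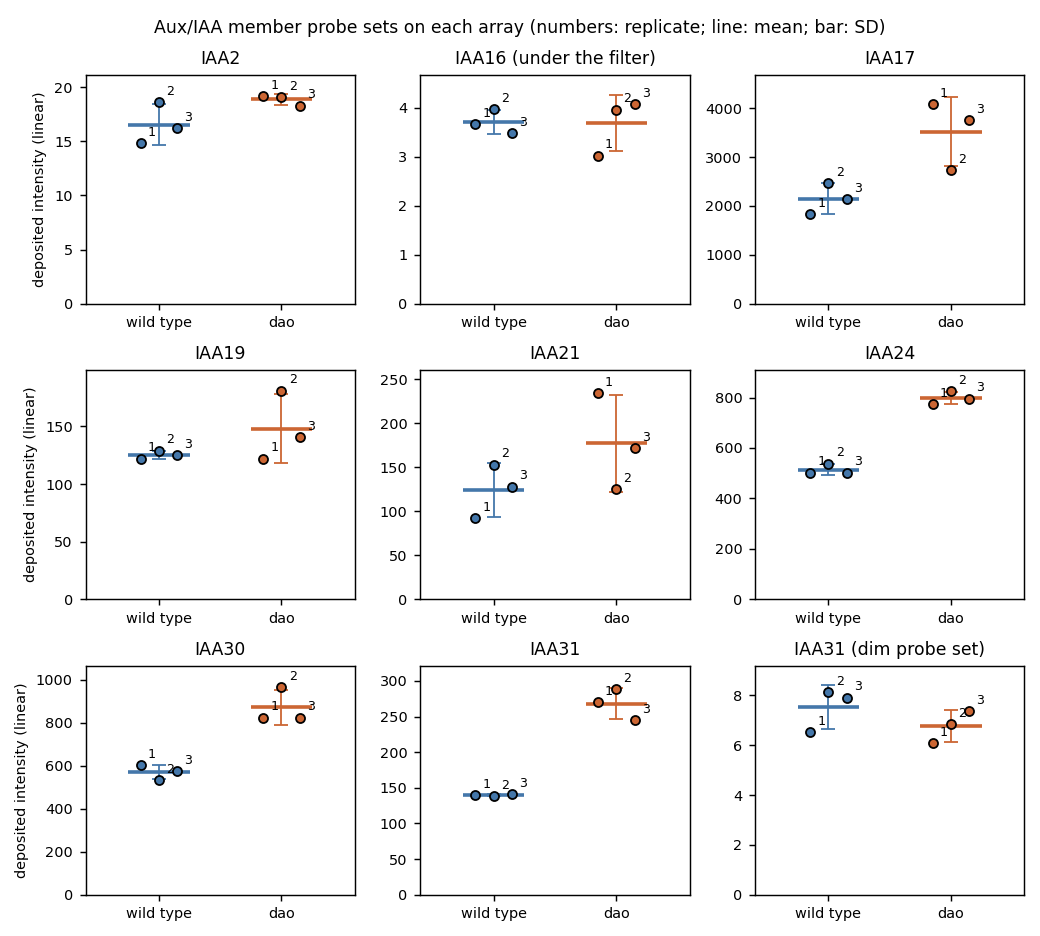
Deposited intensity (linear, from 0) of the 9 member probe sets on each array, 3 wild type (blue) and 3 dao (orange); numbers give the replicate, thick lines the group mean and bars the SD. The groups are apart in IAA17, IAA24, IAA30 and the brighter IAA31 probe set, and overlap in the other 5.

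IAA31 (LOC4352722) had the largest difference among the members when each gene was taken by its brightest probe set. Its brighter probe set read 140, 138 and 141 in wild type (arrays 1, 2 and 3) and 270, 289 and 245 in dao. The wild-type arrays were almost level, at 140 ± 1.62 (SD, n = 3), and the dao arrays stood at 268 ± 22.1 (SD, n = 3), with the lowest dao array 1.74 times the highest wild-type array. The log2 difference was 0.94 (SE 0.11), just under the 2-fold limit. It exceeded that limit by a little without dao array 3 (1.00) and without both arrays numbered 3 (1.01). Just above the limit stood IAA6, which is no member and was the called Aux/IAA gene with the smallest difference (log2 1.22, SE 0.18, limma adjusted p = 0.00866), a call that was lost without wild-type array 3 (1.15) or dao array 3 (1.22). The next Aux/IAA gene below IAA31 was IAA1, also no member and singled out after its value was seen, at log2 0.88.

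The second probe set of IAA31 did not show this difference. It read 6.53, 8.14 and 7.91 in wild type and 6.08, 6.85 and 7.36 on the dao arrays, so the groups overlapped and the log2 difference was -0.15 (SE 0.13). These signals lie close to the filter limit of 6.33, and detection calls were not used here. The place of either set's probes in the transcript was not given in the sources used here. With each gene taken as the average of its probe sets, an alternative added for IAA31 after the data were seen, IAA31 was at log2 0.39, below IAA17, IAA24, IAA30 and IAA21, and the median of the members was 0.50.

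IAA30 (LOC4352721) is the neighbour of IAA31 in the gene table, with 0 genes listed between them. It read 603, 535 and 575 in wild type and 825, 966 and 824 on the dao arrays. All dao arrays were above all wild-type arrays, by at least 1.37 times, and dao array 2 was the highest. The means were 571 ± 34.3 and 872 ± 81.5 (SD, n = 3 each), and the log2 difference was 0.61 (SE 0.10). Without both arrays numbered 2 it was 0.49. Whether the probes of IAA30 and IAA31 cross-hybridise was not tested.

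IAA24 (LOC4342573) was the steadiest member across both groups. It read 502, 538 and 502 in wild type and 775, 825 and 796 on the dao arrays. The replicates of a group differed by at most 1.07 times, less than the step of 1.44 times from the highest wild-type array to the lowest dao array. The log2 difference was 0.64 (SE 0.09) and stayed between 0.61 and 0.67 over 17 settings.

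IAA17 (LOC4338160) read 1835, 2472 and 2134 in wild type and 4078, 2734 and 3754 on the dao arrays. The groups were apart, but only by 1.11 times between wild-type array 2 and dao array 2, and the replicates of the dao group differed by up to 1.49 times. The means were 2147 ± 319 and 3522 ± 702 (SD, n = 3 each), with a log2 difference of 0.70 (SE 0.17). Among the members IAA17 was one of those that moved most with the choice of arrays, from 0.48 without both arrays numbered 1 to 0.98 without both arrays numbered 2. Its probe set is of the type marked _s_at, whose probes can match more than 1 similar transcript.

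IAA21 (LOC4340939) had the widest spread between replicates. It read 91.9, 153 and 128 in wild type and 234, 125 and 172 on the dao arrays. Dao array 2 was below wild-type arrays 2 and 3, so the groups overlapped, and the log2 difference was 0.50 (SE 0.26). It was 0.28 without dao array 1, 0.30 without wild-type array 1 and 0.07 without both.

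IAA19 (LOC4339588) was level in wild type, at 122, 129 and 125, and read 122, 181 and 141 on the dao arrays. Dao array 1 was as low as wild type and dao array 2 was the highest of the 6. The log2 difference of 0.22 (SE 0.16) was 0.07 without dao array 2 and 0.35 without dao array 1. With and without each of these arrays it stayed above 0.

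IAA2 (LOC4326775) read 14.8, 18.6 and 16.2 in wild type and 19.2, 19.1 and 18.3 on the dao arrays. Wild-type array 2 was above dao array 3, and the log2 difference was 0.19 (SE 0.14), or 0.12 without wild-type array 1. IAA16 (LOC9272441) read 3.66, 3.97 and 3.48 in wild type and 3.02, 3.96 and 4.08 on the dao arrays. All 6 of its values were under the filter limit of 6.33 and the groups overlapped, so no difference was detectable for IAA16 at this signal (log2 -0.02, SE 0.13, from the fit without a filter).

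**Figure D2:**
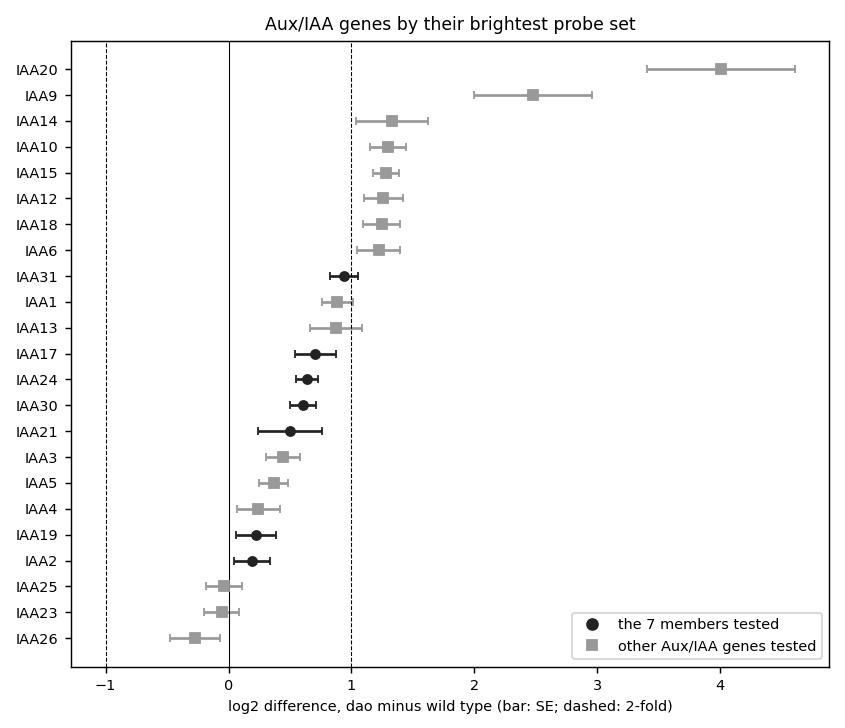
Log2 difference, dao minus wild type, of the 23 Aux/IAA genes tested, each by its brightest probe set; points give the fitted difference, bars the SE, dashed lines the 2-fold limits. The 7 members (black circles) lie between 0.19 for IAA2 and 0.94 for IAA31, and the others (grey squares) between -0.27 and 4.01.

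The other Aux/IAA genes were counted with the same fit. Of 16 tested, 8 rose, 0 fell and 8 did not pass, with a median log2 difference of 1.05, where 3.08% of all genes tested rose. Among the 8 that rose, IAA9 had a wild-type mean of 6.11, under the filter limit of 6.33. It thus passed the filter through the dao arrays. IAA15 rose from 931 ± 88.8 to 2262 ± 200 (SD, n = 3 each; log2 1.28, limma adjusted p = 0.00210), with every dao array above every wild-type array. IAA10 rose from 497 ± 82.1 to 1215 ± 141 (log2 1.30, limma adjusted p = 0.00435). Of the 16, the number past the threshold was 3 without wild-type array 3 and 4 without dao array 3. The 7 members tested, 0 of which passed, are not among the 16, and some are members because they had not passed. Leaving them out raises the share that rose and the median, so nothing is read from either. The members and the others were not compared by a test.

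The order of the arrays within a group differed between members. IAA17 and IAA21 had the same order in both groups, with array 2 the brightest and array 1 the dimmest in wild type and the reverse on the dao arrays. On dao array 2 IAA17 was 0.35 and IAA21 was 0.46 below the mean of its group on the log2 scale (deviations of -0.345 and -0.456). IAA19, IAA24, IAA30 and IAA31 were brightest on that same array, by 0.31, 0.05, 0.15 and 0.11 above the group mean. Dao array 2 was thus the dimmest dao array for 2 members and the brightest for 4, with IAA2 near its group mean (0.017).

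Summed markers of tapetum and exine and of green leaf also differed between the dao arrays. The summed intensity of 7 tapetum and exine markers was 6101, 2301 and 5038 on dao arrays 1, 2 and 3 and 2400 to 2460 in wild type. Most of this sum was 1 gene, RTS, at 4684, 1541 and 3822 on the dao arrays. C6, also in the sum, read 87.6, 125 and 106 in wild type and 531, 149 and 438 on the dao arrays. Every dao array of C6 was above every wild-type array, and it did not pass (limma adjusted p = 0.0524). The summed intensity of the 2 green leaf markers was 3570, 850 and 2604 on the dao arrays and 2335, 1056 and 1479 on wild-type arrays 1, 2 and 3. Within the dao group both sums were lowest on array 2, as IAA17 and IAA21 were, while IAA19, IAA24, IAA30 and IAA31 were highest there. In wild type the leaf sum ran the other way, highest on array 1 and lowest on array 2, where IAA17 and IAA21 were dimmest on array 1 and brightest on array 2. The tapetum sum had the order of the leaf sum there but was almost level, at 2460, 2400 and 2443 on wild-type arrays 1, 2 and 3. Of the tapetum list 0 of 6 tested genes passed, of the leaf list 0 of 2, of the pollen list 0 of 4 and of the endosperm list 0 of 1, where limma gave 2, 0, 3 and 0 an unadjusted p under 0.05. Of 3 carpel and ovule markers tested 1 passed, MADS13, named after its value was seen (limma adjusted p = 0.00212), at 5.49, 6.58 and 6.47 in wild type and 29.4, 20.4 and 26.1 in dao. Its wild-type mean lies under the filter limit of 6.33, so it passed the filter through the dao arrays and no exact fold is given. Pollen sums did not overlap between the groups and were lower on the dao arrays. The part of these markers in the members' differences was not tested. Without dao array 2 the log2 differences were 0.88 for IAA17, 0.73 for IAA21, 0.53 for IAA30 and 0.88 for IAA31.

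**Figure D3:**
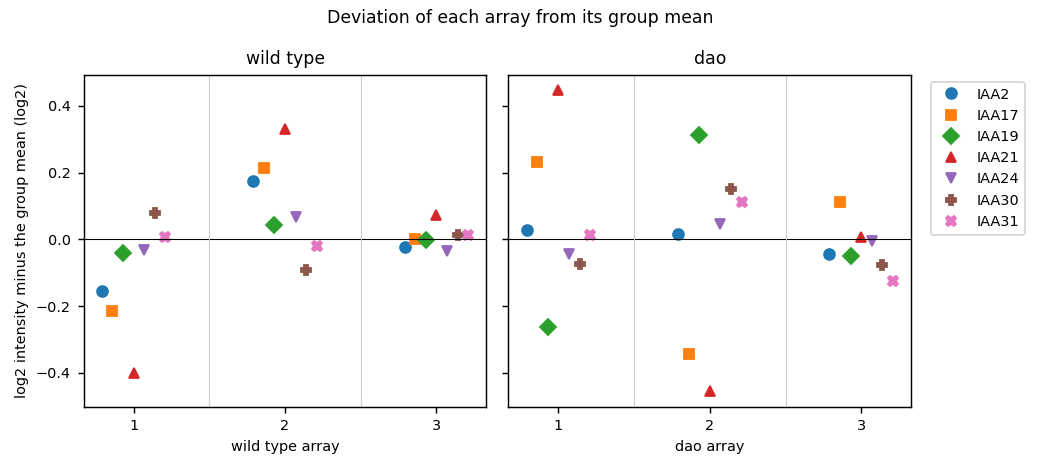
Deviation of each array from the mean of its group (log2 intensity) for the 7 member genes tested, wild type left and dao right. On dao array 2 IAA17 and IAA21 lie below 0 at -0.345 and -0.456, while IAA19 lies highest at 0.313.

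Likeness of pattern over the 6 arrays was measured by Pearson's r of log2 intensity, among 2188 genes with a name, as a description. The 6 points are 2 groups of 3 and share any difference between the groups. The genes named below are the closest of 2188, so their r is high by choice. IAA30 was most like JAZ3, a repressor of jasmonate signalling (r = 0.998), and IAA31 was most like SAPK1, a kinase of abscisic acid signalling (r = 0.998). IAA24 was most like DPK4 (r = 0.998), with YSL12, a metal chelate transporter, next (r = 0.997). The size of a difference does not enter r: it was log2 0.26 for DPK4 and 4.14 for YSL12, against 0.64 for IAA24. For IAA17 the closest gene was HDR1 (r = 0.998), for IAA19 ZIP6, of a metal transporter family (r = 0.997), for IAA21 NPR4 (r = 0.992) and for IAA2 the homeobox gene HOX1 (r = 0.988). Among the 21 pairs of members, IAA24 and IAA31 were the most alike (r = 0.984) and IAA19 and IAA21 the least (r = -0.124). The neighbours IAA30 and IAA31 had r = 0.979. With the group means taken out the order changed: IAA17 and IAA21 were then the most alike (r = 0.962) and IAA17 and IAA30 the least (r = -0.982), IAA24 and IAA31 were at 0.184, and the median over the 21 pairs was 0.076, against 0.69 with the group difference included.

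The partners of Aux/IAA proteins were described from lists of gene names. No TIR1/AFB receptor was found by name, and the SKP1 subunit of the receptor complex had no probe set. Both measured co-repressors of the TOPLESS family did not pass. TPR2 read 485, 497 and 474 in wild type and 504, 497 and 493 on the dao arrays (log2 0.04, limma adjusted p = 0.827). TPR3 read 409, 354 and 372 in wild type and 481, 377 and 422 on the dao arrays (log2 0.17, limma adjusted p = 0.431). The groups overlapped in both genes, and 0 of the 2 had an unadjusted p under 0.05 in limma, where 5162 of all 15612 genes had.

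Of 17 ARFs tested, the transcription factors that Aux/IAA proteins bind, 1 rose and 0 fell, where 3.08% of all genes tested rose. Their median log2 difference was 0.40, against 0.11 over all genes tested. In limma 9 of the 17 had an unadjusted p under 0.05, where 5162 of all 15612 genes had. In 10 of the 17 every dao array was above every wild-type array, which was so in 27.1% of all genes tested. The ARF that rose was ARF16 (LOC9270361), which read 82.8, 87.6 and 83.3 in wild type and 309, 179 and 245 on the dao arrays (log2 1.50, limma adjusted p = 0.00639). That call was lost without wild-type array 3 (1.49) or dao array 3 (1.48). ARF12 stood at log2 0.58, under the 2-fold limit (limma adjusted p = 0.0222).

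Targets of auxin signalling were few by name. Of 9 GH3 genes, whose products join auxin or jasmonate to amino acids, 1 rose and 0 fell, where 3.08% of all genes tested rose. Their median log2 difference was 0.18, against 0.11 over all genes tested. In limma 4 of the 9 had an unadjusted p under 0.05. In 4 of the 9 every dao array was above every wild-type array, which was so in 27.1% of all genes tested. GH3.1 rose from 38.2 ± 17.5 to 126 ± 37.1 (SD, n = 3 each; log2 1.82, limma adjusted p = 0.0304), a call lost without wild-type array 3 (2.03) and without dao array 1 (1.62) or 3 (1.79). GH3-8 stood at log2 0.45 (limma adjusted p = 0.0125), under the 2-fold limit. SAUR39, a repressor of auxin synthesis and transport in rice, rose from 7.92 ± 1.16 to 25.7 ± 0.788 (limma adjusted p = 0.00245). Its wild-type signals, 6.59 to 8.69, lie close to the filter limit of 6.33, so the size of its log2 difference of 1.71 is uncertain. Neither of the 2 auxin efflux carriers tested passed in limma, with PIN4 at log2 0.43 (limma adjusted p = 0.146) and PIN3A at 0.19 (limma adjusted p = 0.463). In limma 1 of the 2 had an unadjusted p under 0.05, as did 5162 of all 15612 genes tested.

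The members' differences were recomputed under 16 other settings. For each of the 7 tested genes the difference stayed above 0 in all 17, and for the dim IAA31 probe set it stayed below 0 in all 16 that kept it. The range was widest for IAA21, from 0.07 to 0.89, followed by IAA17, from 0.48 to 0.98. It was 0.49 to 0.69 for IAA30, 0.80 to 1.01 for the brighter probe set of IAA31 (0.39 for the average of both), 0.07 to 0.35 for IAA19 and 0.07 to 0.28 for IAA2.

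**Figure D4:**
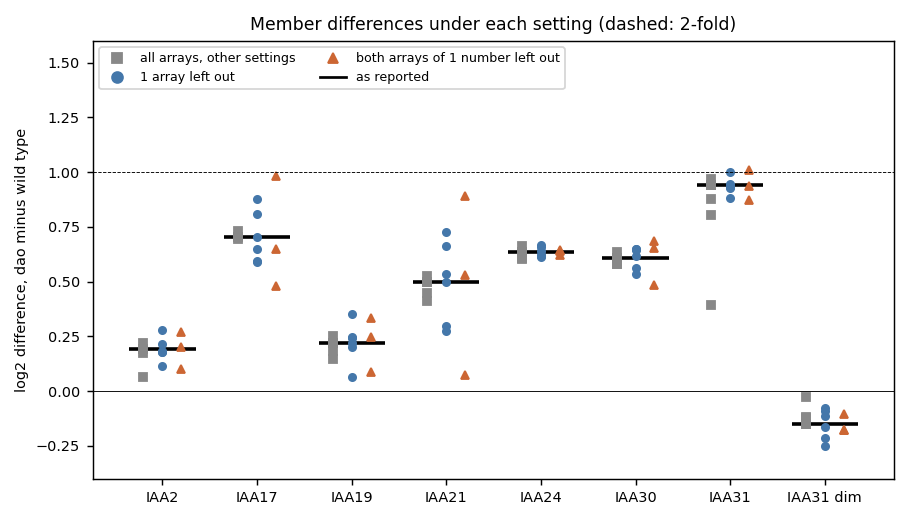
Log2 difference, dao minus wild type, of the 8 tested member probe sets under each setting; black lines give the reported value, grey squares other settings with all arrays, blue circles 1 array left out and orange triangles both arrays of 1 number left out. IAA24 stays between 0.61 and 0.67, while IAA21 runs from 0.07 to 0.89; the lowest square of IAA31, at 0.39, is the average of its 2 probe sets.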

How the data were processed

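RNA of mature anthers from 3 wild-type and 3 dao samples was hybridised to Affymetrix rice genome arrays. The authors deposited 1 linear intensity per probe set and array; per the submitters' processing notes the tool was MAS5, and the background step was not given in the sources used here. Quartiles of the deposited intensity were near-equal on the 6 arrays. The labels call the samples biological replicates.

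Of 57381 probe sets, 123 controls were left out. The platform's gene names gave 22436 probe sets 1 gene each, gave 95 several and listed none for 34727. Entrez IDs linked all 17905 genes to their names in assembly ASM3414082v1, from which gene order was read as well. Genes named LAX that act in the panicle and a kinase named OSK1 were left out of the lists.

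Intensities were taken to log2 as deposited. Probe sets under the 40th percentile of mean signal were left out, and the other 34355 were fitted in limma 3.58.1 (R 4.3.3; trend, 2-sided, no covariate), with p-values adjusted by Benjamini-Hochberg over all of them. Called means an adjusted p of at most 0.05 and at least 2-fold, the limits of the series' design text. The members and lists were chosen with earlier results of these data known. Named are all members, DAO, the measured co-repressors, and of other lists at most the 2 smallest adjusted p-values; of the other Aux/IAA genes also the called one with the smallest difference. Pollen, carpel and ovule markers, IAA1 and IAA9 are named outside this rule, after their values were seen.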

Additional observations from a re-analysis of the deposited data

How the results depend on the processing

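The alternatives were no filter or the 60th percentile, quantile or median scaling, log2(intensity + 32), a constant prior, a replicate block, averaging the probe sets of a gene, and leaving out 1 array or both arrays of a number. Probe sets past the threshold numbered 1157, and 278 to 1684 with 1 array left out (278 without wild-type array 3, 298 without dao array 3, 638 without dao array 1). They numbered 402 with log2(intensity + 32), 2222 with both arrays numbered 2 left out and 0 with both numbered 3 left out, where limma had 3481 at an unadjusted p under 0.05. The other Aux/IAA genes past the threshold numbered 8, and 3 to 9 with 1 array left out, 5 with log2(intensity + 32) and 0 without both arrays numbered 3, where 10 of 16 had an unadjusted p under 0.05. The members' median of 0.61 was 0.59 to 0.66 with 1 array left out, 0.48 without both arrays numbered 1 and 0.50 with averaged probe sets. The cause of these shifts was not tested.

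Same-numbered arrays deviated from their group means with correlations of 0.25, 0.181 and 0.087 over probe sets. Arrays of unlike number had -0.226 to 0.133. Each dao array correlated best with the wild-type array of its own number, but wild-type array 3 correlated best with dao array 2 (0.133). Whether the numbers pair the samples is thus not settled, and the main fit took no pairing. With the replicate block 1136 probe sets and 7 other Aux/IAA genes passed, and the members' median was 0.61. Among the named genes with a call, IAA9 left aside, GH3.1 lost it with the block (1.82, limma adjusted p = 0.0554). The calls of DAO, IAA6, IAA10, IAA15, ARF16, GH3.1, SAUR39 and MADS13 were all lost without both arrays numbered 3, and those of IAA6, SAUR39 and MADS13 with log2(intensity + 32) (0.79, 0.53 and 0.58). Among single members IAA2 was at 0.07 and IAA31 at 0.80 with log2(intensity + 32), which shrinks differences of dim genes. IAA31 was at 0.39 with averaged probe sets, an alternative added after the data were seen. Signal over background limits IAA16, IAA2, the second IAA31 probe set, and SAUR39, MADS13 and IAA9 in wild type.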
